A study of Mus musculus with 6 samples.

Results

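Adipocyte and lipid storage genes are the genes through which fat cells make, coat, store and release triglyceride, together with the hormones that fat cells secrete. The set described here holds 40 genes, chosen by name as fat cell, lipogenesis and lipid droplet genes. All 40 had a row in the deposited table of 23381 genes, and 27 of them had a mean of at least 0.5 RPKM (a read count divided by gene length and by the library's depth) over the 6 libraries and could be tested. The tumours were grown from the mouse mammary carcinoma line 4T1, injected at 500000 cells into the inguinal mammary fat pad of Balb/c mice aged 10 weeks. Established tumours were exposed for 3 weeks, with 3 doses weekly, to the vehicle DMSO (3 libraries) or to Vismodegib at 2 mg per mouse (3 libraries). Vismodegib inhibits Smoothened, the membrane protein that passes on the Hedgehog signal. All mice thus carried a 4T1 graft in a depot that itself contains fat, the drug reached host tissue as well as graft, and the labels do not say how surrounding fat was trimmed or whether each library came from its own mouse. The p-values therefore measure the spread between these libraries, which may in part be technical.

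A white fat cell takes up fatty acids that lipoprotein lipase frees at the vessel wall, esterifies them onto glycerol phosphate, and keeps the triglyceride in a droplet coated by perilipins and CIDE proteins. Lipases on the same droplet release the fatty acids again during fasting. PPAR gamma and the C/EBP factors switch this programme on, and Hedgehog signalling is known to hold it back in precursor cells. Tumour cells and macrophages share the general enzymes of fatty acid synthesis and the widely expressed perilipins, whereas adiponectin, leptin, resistin and perilipin 1 mark fat cells.

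Most genes that mark fat cells were highest in the same pair of treated tumours, Vismodegib replicates 1 and 2. Adipoq, Retn, Lep, Plin1 and Cidec did not exceed 5.93 RPKM in any tumour, whereas Cfd reached 66.7 RPKM. In 17 of the 40 members both of these libraries lay above the other 4, as in 9.66% of all 23381 genes, and in 12 of those 17 Vismodegib replicate 3 lay within the range of the DMSO libraries. Of the 17, 12 were among the 27 members tested, against 12.5% of all 11818 genes tested. This pattern was noticed in the data and was given no test. Most of the general enzymes of fatty acid and triglyceride synthesis and of lipolysis overlapped between the groups, as did all tested members except Lpl and Mgll. Most genes overlapped: of all genes tested, 4.29% were higher in Vismodegib without overlap and 0.745% lower. The 17 members with the pattern also included genes not particular to fat cells, Plin3, Mgll, Gpam and Elovl6. By limma, no member had an adjusted p below 0.05, and 0% of all genes tested did. At an unadjusted p under 0.05 there were 5 members, Retn, Cfd, Cidec, Lpl and Scd1, where 2.25% of all genes tested were called. Of these, Retn, Cidec and Lpl had DMSO means of 0.104, 0.294 and 0.264 RPKM. They reached the mean of 0.5 RPKM needed for testing only through Vismodegib, so they were bound to lean higher. Among the tested members, 21 had log2 differences (Vismodegib minus DMSO, on log2(RPKM + 0.5)) above 0 and 6 below, with a median of 0.21. Over all genes tested, 58.4% were above 0 and the median was 0.05. With quantile scaling that share was 47.4%, and 19 of the 27 members were above 0. Vismodegib replicate 1 was the highest library for 11 of the 27 members and for 26.9% of all genes tested.

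**Figure D1:**
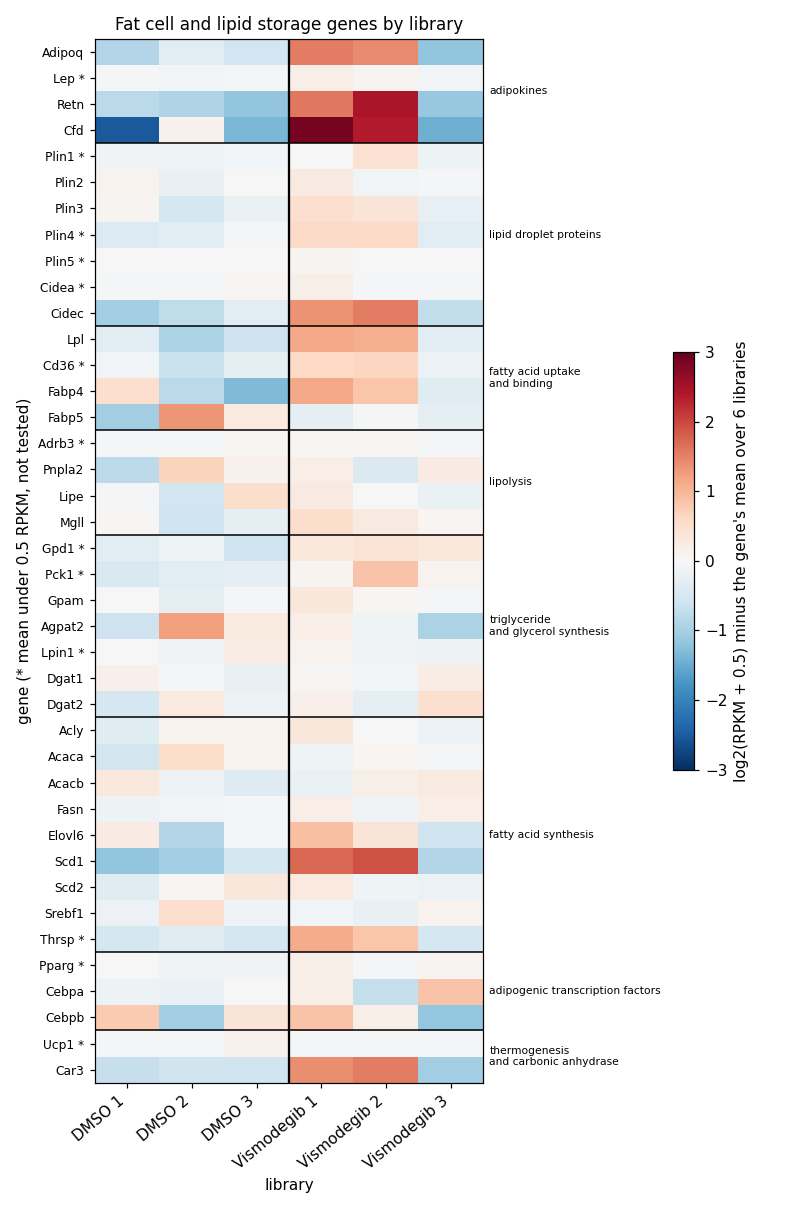
Each row is 1 of the 40 genes, each column a library, and the colour is log2(RPKM + 0.5) minus the gene's mean over the 6 libraries. Red cells in Vismodegib replicates 1 and 2 recur for Adipoq, Retn, Cfd, Cidec, Lpl, Scd1 and Car3, while Vismodegib replicate 3 resembles the DMSO columns for these genes.

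The adipokines are the hormones and serum proteins that fat cells secrete. Values below are in the order of replicates 1, 2 and 3. Adipoq (ENSMUSG00000022878.5, chromosome 16, 23146536 to 23158028, plus strand), which encodes adiponectin, an insulin-sensitising hormone, was at 0.116, 0.416 and 0.269 RPKM in the vehicle tumours versus 2.82, 2.54 and 0 RPKM under Vismodegib. The groups overlapped because the third treated tumour was listed at 0, in the most deeply read library, where 3 reads would give 0.0400 RPKM. Cfd (ENSMUSG00000061780.6, chromosome 10, 79890853 to 79892655, plus strand), the complement protease adipsin, was the most abundant adipokine transcript. It was at 1.10, 9.68 and 3.06 RPKM without the drug, compared with 66.7, 47.3 and 2.84 RPKM with it. Retn (ENSMUSG00000012705.16, chromosome 8, 3655770 to 3660110, plus strand), which encodes the mouse fat cell hormone resistin, was at 0.169, 0.127 and 0.0157 RPKM in the controls against 3.03, 5.93 and 0.0328 RPKM in the treated tumours. In Cfd and Retn, too, the first and second treated tumours were far above the others and the third fell inside the control range. The log2 differences were 1.18 for Adipoq (95% interval from -0.30 to 2.66), 2.51 for Cfd (0.04 to 4.99) and 1.93 for Retn (0.18 to 3.69), each with adjusted p = 1 by limma. Without Vismodegib replicate 3 they were 2.07, 3.87 and 2.99. Without Vismodegib replicate 1 they were 0.70, 1.71 and 1.62, and leaving out Vismodegib replicate 2 gave 0.77, 1.95 and 1.19; no adipokine passed in any of these fits. Lep, the gene of the satiety hormone leptin, was too low to be tested, at 0.00796, 0 and 0.00737 RPKM in the vehicle tumours versus 0.1003, 0.0628 and 0 RPKM under Vismodegib. For its longest annotated transcript, the values of Vismodegib replicates 1 and 2 amount to about 13.6 and 8.7 reads. In whole tumours, more cells of a type and more RNA per cell cannot be told apart, and the same holds for all results below.

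Promoter sequence was available for 29 of the 40 genes, from RefSeq on GRCm38.p6, the same assembly as mm10. A few are shown, from fat cell markers that shared the pattern of high values in Vismodegib replicates 1 and 2 and held a word marked below. Cfd and Retn shared the pattern as well, but their promoters held neither word and are not shown. Plin1 shared the pattern and held the C/EBP-like word described below, and its promoter is not shown either. Each runs from 250 bases before a RefSeq transcript start to 50 bases after it, 5′ to 3′. Cidec has more than one such start, and both windows are given, one at the outer end of the gene and one further inside it. Capitals mark a C/EBP-like word, TTGCNNAA on either strand, in Lep and Cidec, and the CCAAT box on either strand in Adipoq.
Lep, chr6:29059971-29060270, plus strand: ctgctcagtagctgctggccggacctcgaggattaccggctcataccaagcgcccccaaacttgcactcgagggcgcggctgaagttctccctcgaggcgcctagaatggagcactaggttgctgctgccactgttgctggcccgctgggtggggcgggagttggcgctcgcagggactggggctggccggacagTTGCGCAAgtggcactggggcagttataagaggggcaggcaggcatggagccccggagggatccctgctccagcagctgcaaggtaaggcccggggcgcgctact
Cidec, at the gene's outer end, chr6:113435711-113436010, minus strand: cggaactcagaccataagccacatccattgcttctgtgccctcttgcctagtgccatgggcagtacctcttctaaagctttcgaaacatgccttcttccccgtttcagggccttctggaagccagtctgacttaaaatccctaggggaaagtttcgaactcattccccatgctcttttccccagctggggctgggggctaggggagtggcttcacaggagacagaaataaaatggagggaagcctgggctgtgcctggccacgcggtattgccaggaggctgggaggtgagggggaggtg
Cidec, at the inner start, chr6:113434715-113435014, minus strand: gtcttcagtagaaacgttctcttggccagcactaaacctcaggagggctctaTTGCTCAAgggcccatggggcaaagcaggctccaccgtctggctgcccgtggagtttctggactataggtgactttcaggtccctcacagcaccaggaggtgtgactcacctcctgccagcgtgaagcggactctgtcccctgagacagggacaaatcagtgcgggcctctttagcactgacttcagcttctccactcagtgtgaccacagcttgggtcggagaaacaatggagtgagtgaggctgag
Adipoq, chr16:23146286-23146585, plus strand: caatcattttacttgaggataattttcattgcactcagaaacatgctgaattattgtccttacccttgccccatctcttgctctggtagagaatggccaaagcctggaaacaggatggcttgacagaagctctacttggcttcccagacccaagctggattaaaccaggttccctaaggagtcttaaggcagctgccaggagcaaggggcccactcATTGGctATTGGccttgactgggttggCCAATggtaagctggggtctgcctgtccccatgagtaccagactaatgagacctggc
Adipoq held 3 matches to CCAAT, all within 34 bases before the start, and Lep held 1 match to TTGCNNAA. The inner window of Cidec held 1 match as well, and the window at its outer end held 0. These words are common. TTGCNNAA stood in 13.2% of the 38 promoters of the 29 genes and in 10.8% of all 32851 promoters of this length, and CCAAT in 39.5% and 37.4%. GACCACCCA, the consensus of the Gli factors at the end of the Hedgehog pathway, was in 0 of the 38 and in 0.253% of all promoters. A match describes letters only, and a word that is missing may lie outside this window.

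The droplet coat proteins were divided between genes of general use and genes of fat cells. Plin2, the perilipin of small droplets in most cell types, was the most abundant of its family. It was at 62.9, 50.5 and 57.9 RPKM without the drug, compared with 70.8, 55.0 and 57.0 RPKM with it, a log2 difference of 0.09 (95% interval from -0.47 to 0.65). Plin2 therefore overlapped between the groups and varied little within them. Plin3, a cytosolic perilipin that coats nascent droplets, was at 8.12, 5.15 and 6.59 RPKM in the controls against 10.99, 10.1 and 6.32 RPKM in the treated tumours. Cidec (ENSMUSG00000030278.11, chromosome 6, 113424634 to 113435760, minus strand), whose protein fuses droplets into a large one in white fat, was at 0.129, 0.247 and 0.506 RPKM in the vehicle tumours versus 2.73, 3.20 and 0.260 RPKM under Vismodegib. Both genes were highest in Vismodegib replicates 1 and 2, and in neither did the third treated tumour exceed the controls. The log2 differences were 0.42 for Plin3 (95% interval from -0.26 to 1.10) and 1.42 for Cidec (0.15 to 2.69), with adjusted p = 1 by limma. The Cidec difference was 2.15 without Vismodegib replicate 3, but 1.11 without Vismodegib replicate 1 and 1.01 without Vismodegib replicate 2. Plin1, the perilipin that guards the droplet of fat cells against lipases, was at 0.0345, 0.0309 and 0.0425 RPKM without the drug, compared with 0.0723, 0.292 and 0.0223 RPKM with it. Plin4, a perilipin of white fat and muscle, was at 0.00841, 0.0362 and 0.152 RPKM in the controls against 0.511, 0.520 and 0.0407 RPKM in the treated tumours. These low genes were again highest in Vismodegib replicates 1 and 2, with Vismodegib replicate 3 within or below the control range. Plin5, the perilipin of oxidative tissue, was listed at 0 in all libraries except Vismodegib replicate 1, where 0.0345 RPKM amounts to about 2.9 reads. Cidea, a droplet protein of brown and beige fat, was listed at 0 in 4 libraries and did not exceed 0.0862 RPKM.

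**Figure D2:**
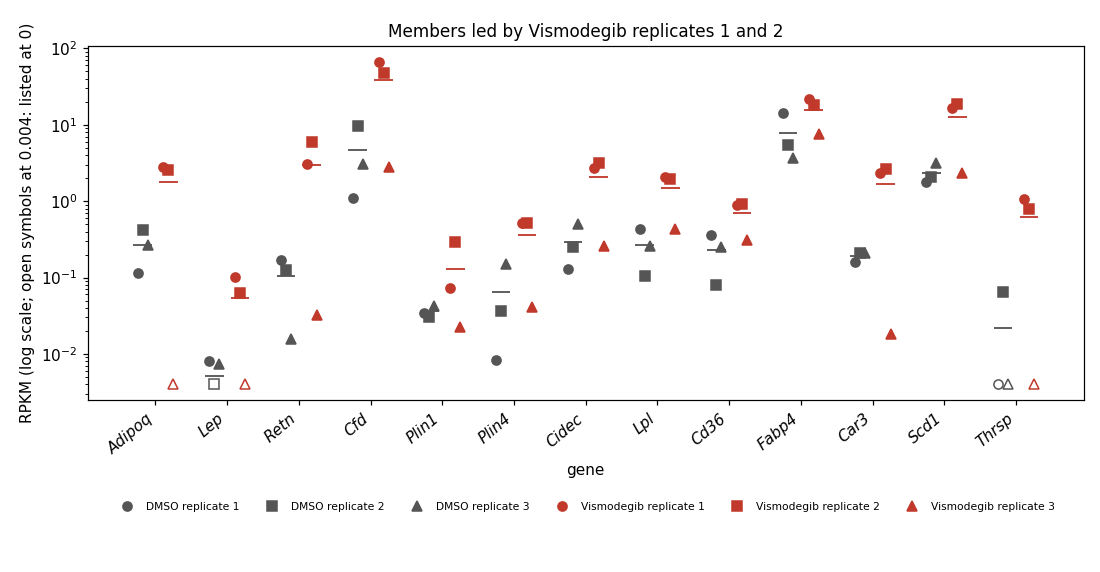
RPKM on a log scale for 13 members, with circles, squares and triangles for replicates 1, 2 and 3, grey for DMSO and red for Vismodegib, bars at group means, and open symbols for values listed at 0. Vismodegib replicates 1 and 2 lay above the other 4 libraries in 17 members. Of these, Plin3, Mgll, Gpam and Elovl6 were left out and the other 13 are shown. By that choice, red circles and squares lie above all other symbols for each gene shown, from 0.0628 RPKM for Lep to 66.7 RPKM for Cfd. Red triangles lie with the grey symbols or below them for all but Lpl.

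Genes of fatty acid uptake and binding differed among themselves. Lpl (ENSMUSG00000015568.16, chromosome 8, 68880491 to 68907448, plus strand), the lipase that frees fatty acids from lipoproteins, was at 0.428, 0.104 and 0.260 RPKM in the vehicle tumours versus 2.08, 1.97 and 0.433 RPKM under Vismodegib. Its groups did not overlap, but the gap between DMSO replicate 1 and Vismodegib replicate 3 was narrow. Its log2 difference of 1.27 (95% interval from 0.33 to 2.21) had adjusted p = 1 and was 1.75 without Vismodegib replicate 3. Among tested members 2 had groups that did not overlap, Lpl and Mgll, both higher in Vismodegib, where 4.29% of all genes tested did so in this direction; 0 did so in the other direction, against 0.745% of all genes. Cd36, a scavenger receptor that takes up fatty acids, was too low to be tested, at 0.364, 0.0799 and 0.248 RPKM without the drug, compared with 0.890, 0.926 and 0.312 RPKM with it. Fabp4, the fatty acid carrier of fat cells that capillary endothelium and macrophages also make, was at 14.2, 5.40 and 3.65 RPKM in the controls against 22.0, 18.0 and 7.54 RPKM in the treated tumours. Its DMSO replicate 1 lay above Vismodegib replicate 3, and its log2 difference was 1.07 (95% interval from -0.14 to 2.28). Without DMSO replicate 1 the difference was 1.60 and without DMSO replicate 3 it was 0.68. Fabp5, the related carrier of epithelium and macrophages, went the other way, at 4.36, 24.7 and 11.7 RPKM in the vehicle tumours versus 7.74, 9.20 and 7.82 RPKM under Vismodegib. All treated values fell between those of the first and the third control, so that the log2 difference of -0.39 (95% interval from -1.57 to 0.79) followed DMSO replicate 2 and was 0.18 without it.

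Lipolysis genes act in sequence on stored triglyceride. Pnpla2 encodes the lipase that removes the first fatty acid, and it was at 7.21, 20.6 and 14.0 RPKM without the drug, compared with 14.8, 9.34 and 15.2 RPKM with it. Lipe encodes hormone-sensitive lipase, which acts next, and it was at 5.82, 3.86 and 8.91 RPKM in the controls against 7.32, 6.004 and 5.12 RPKM in the treated tumours. Both genes overlapped fully, with differences of 0.003 and 0.05 that turned below 0 with median-ratio scaling (-0.06 and -0.02) and with quantile scaling (-0.05 and -0.02). Mgll, the lipase of the last step, was at 2.24, 1.27 and 1.73 RPKM in the vehicle tumours versus 3.40, 2.75 and 2.29 RPKM under Vismodegib. Every treated tumour lay above every control, though by only a narrow margin between Vismodegib replicate 3 and DMSO replicate 1, and the log2 difference was 0.57 (95% interval from -0.06 to 1.19, adjusted p = 1 by limma). Exons of 11 members overlap those of another gene in GENCODE M21, and nothing used here states whether counting was stranded, so part of their reads may belong to the other gene. The other gene lies on the opposite strand for Lipe, Mgll, Adrb3, Gpd1, Agpat2, Elovl6, Plin4, Srebf1, Cebpa and Cebpb, and Scd2 and Srebf1 each contain a microRNA gene. Adrb3, the receptor through which noradrenaline starts lipolysis in fat, was listed at 0 or at no more than 0.0366 RPKM.

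Triglyceride synthesis joins fatty acids to glycerol phosphate. Glycerol phosphate comes from Gpd1, glycerol-3-phosphate dehydrogenase, and, in fat, from the pathway of Pck1, phosphoenolpyruvate carboxykinase. Gpd1 was at 0.198, 0.291 and 0.0751 RPKM without the drug, compared with 0.584, 0.656 and 0.588 RPKM with it. Pck1 was at 0, 0.0502 and 0.0649 RPKM in the controls against 0.217, 0.737 and 0.236 RPKM in the treated tumours. In both genes all 3 treated tumours, the third included, lay above all 3 controls; both were under the filter of 0.5 RPKM, and two-sided exact permutation tests of their log2 values gave p = 0.1, the smallest that 3 against 3 allows. The enzymes that add the fatty acids were more abundant and overlapped. Gpam, which adds the first, was at 1.33, 1.01 and 1.32 RPKM in the vehicle tumours versus 1.85, 1.44 and 1.29 RPKM under Vismodegib. Agpat2, which adds the next, was at 2.97, 12.1 and 6.04 RPKM without the drug, compared with 5.71, 4.38 and 2.29 RPKM with it. Its log2 difference of -0.58 (95% interval from -1.69 to 0.52) was the lowest among the members tested, and it was -0.12 without DMSO replicate 2. Lpin1, the phosphatidate phosphatase, stayed between 0.224 and 0.436 RPKM in all libraries. Dgat1, an enzyme of the final step, was at 4.31, 3.64 and 3.15 RPKM in the controls against 3.95, 3.63 and 4.55 RPKM in the treated tumours. Dgat2, the other enzyme of that step, was at 0.476, 1.21 and 0.762 RPKM in the vehicle tumours versus 1.07, 0.668 and 1.45 RPKM under Vismodegib. The differences of Gpam, Dgat1 and Dgat2 were 0.23, 0.12 and 0.25, and each interval spanned 0.

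Fatty acid synthesis builds palmitate from citrate and then lengthens and desaturates it. Acly, which makes acetyl-CoA from citrate, was at 7.03, 10.1 and 9.98 RPKM without the drug, compared with 11.9, 9.19 and 8.15 RPKM with it. Fasn, fatty acid synthase, was the steadiest gene of this group, at 12.6, 13.2 and 13.5 RPKM in the controls against 16.1, 13.03 and 16.3 RPKM in the treated tumours. On the log2 scale it differed by 0.20 (95% interval from -0.34 to 0.73). Acaca, the acetyl-CoA carboxylase of synthesis, was at 0.666, 1.9986 and 1.34 RPKM in the vehicle tumours versus 1.05, 1.26 and 1.17 RPKM under Vismodegib. Acacb, the carboxylase at the mitochondrial surface that restrains fatty acid oxidation, was at 1.01, 0.581 and 0.429 RPKM without the drug, compared with 0.559, 0.870 and 0.976 RPKM with it. Neither carboxylase gene separated the groups, and their differences were -0.07 and 0.17. Elovl6, which lengthens palmitate, was at 7.19, 3.02 and 5.73 RPKM in the controls against 11.8, 8.08 and 3.81 RPKM in the treated tumours, a difference of 0.48 (95% interval from -0.52 to 1.47).

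The paired desaturase genes, which introduce the first double bond, parted from each other. Scd1 (ENSMUSG00000037071.3, chromosome 19, 44394455 to 44407879, minus strand), the form of fat and liver, was at 1.78, 2.05 and 3.12 RPKM in the vehicle tumours versus 16.6, 18.9 and 2.34 RPKM under Vismodegib. Scd2 (ENSMUSG00000025203.6, chromosome 19, 44293674 to 44306864, plus strand), a close relative on the same chromosome that is expressed more widely, was at 15.0, 19.7 and 24.7 RPKM without the drug, compared with 23.7, 17.8 and 17.0 RPKM with it. Scd1 thus followed the pattern of Cidec and Adipoq across the libraries, while Scd2 overlapped fully. The log2 difference was 1.83 for Scd1 (95% interval from 0.32 to 3.33, adjusted p = 1 by limma) and -0.01 for Scd2 (-0.64 to 0.63). The Scd1 difference was 2.72 when Vismodegib replicate 3 was left out and 1.34 when Vismodegib replicate 2 was, and the sign for Scd2 followed single libraries. Reads from these relatives can be shared between them, so the values of each carry that uncertainty. Thrsp, a small protein that raises lipogenesis in fat, was listed at 0 in DMSO replicates 1 and 3 and was at 0.0656 RPKM in DMSO replicate 2. In Vismodegib it was at 1.06 and 0.791 RPKM in replicates 1 and 2 and was listed at 0 in replicate 3. Srebf1, the transcription factor that drives the genes of fatty acid synthesis, did not follow it. It was at 15.0, 24.3 and 15.3 RPKM in the controls against 16.0, 14.4 and 18.1 RPKM in the treated tumours, with a difference of -0.14 (95% interval from -0.77 to 0.49).

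**Figure D3:**
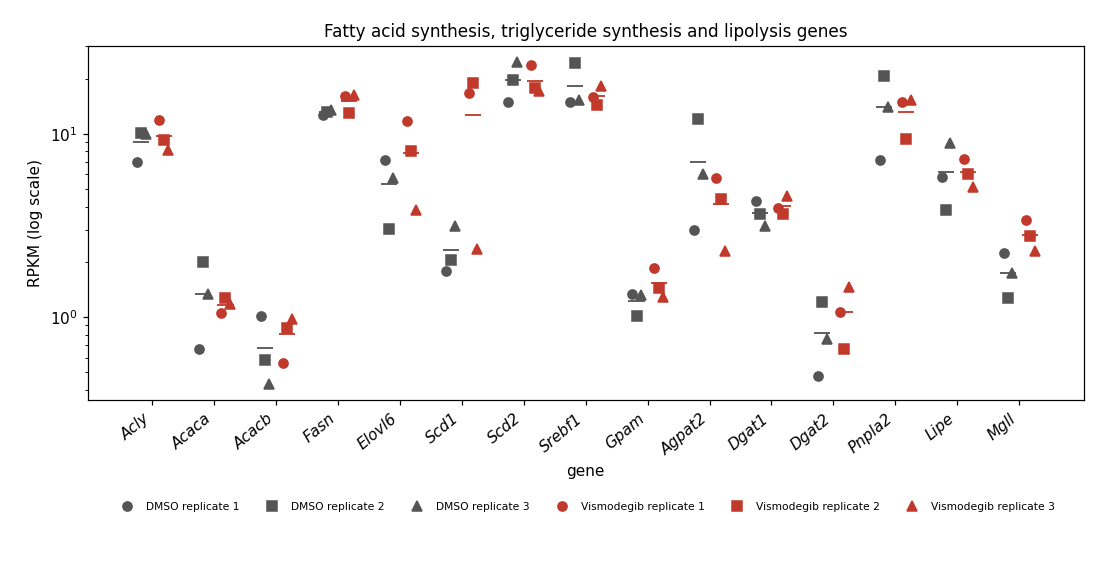
RPKM on a log scale for 15 genes of fatty acid synthesis, triglyceride synthesis and lipolysis, with symbols for replicates and colours for groups as in the legend and bars at group means. The groups overlap for all genes shown except Mgll, and Scd1 has 2 treated tumours at 16.6 and 18.9 RPKM and the third, at 2.34 RPKM, among the controls.

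The members that encode adipogenic transcription factors differed widely in level. Pparg, the nuclear receptor required for fat cell formation, was near the floor of detection, where a difference was not detectable, at 0.0362, 0 and 0 RPKM in the vehicle tumours versus 0.106, 0.0238 and 0.0701 RPKM under Vismodegib. The highest of these values amounts to about 9.3 reads for the longest annotated transcript. Cebpa, the factor that maintains mature fat cells and also acts in myeloid cells, was at 3.33, 3.21 and 3.78 RPKM without the drug, compared with 4.27, 2.07 and 7.18 RPKM with it. Cebpb, which acts early in fat cell formation and in inflammation, had the highest RPKM of the set in all 6 libraries, though part of its exon overlaps Tmem189 on the opposite strand. It was at 496, 142 and 376 RPKM in the controls against 523, 325 and 128 RPKM in the treated tumours. Cebpa and Cebpb both overlapped between the groups, with differences of 0.21 and -0.09 whose sign followed single libraries. Car3, the carbonic anhydrase abundant in fat and slow muscle, was at 0.158, 0.210 and 0.207 RPKM in the vehicle tumours versus 2.33, 2.61 and 0.0181 RPKM under Vismodegib. Its 3 controls were close together, Vismodegib replicates 1 and 2 were above them, and the third treated tumour was below them. The Car3 difference was 1.26 (95% interval from -0.13 to 2.65), and 2.10 in the fit that left out Vismodegib replicate 3, its lowest library. Ucp1, the uncoupling protein of brown fat, was listed at 0 in all libraries except DMSO replicate 3, at 0.0604 RPKM.

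**Figure D4:**
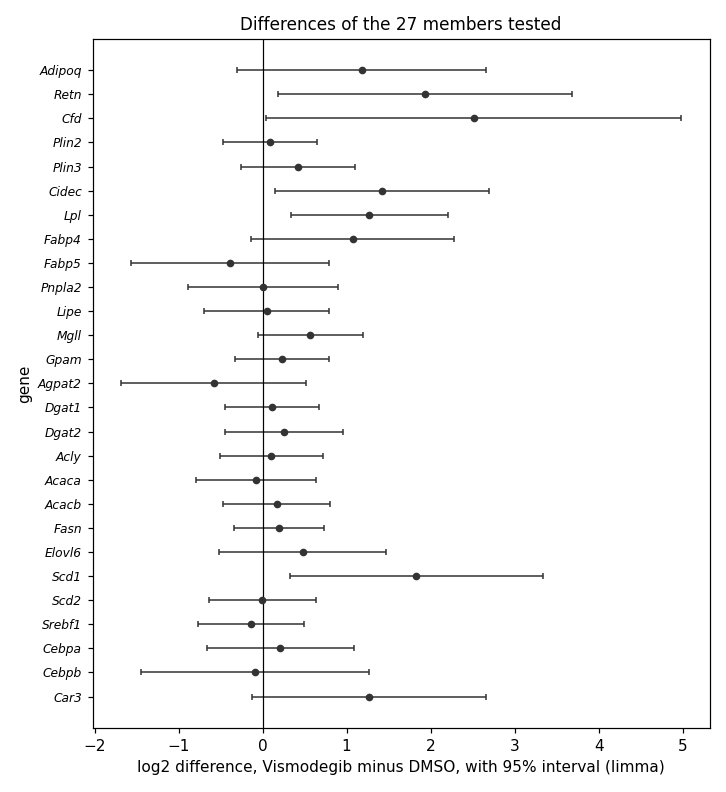
Points are log2 differences (Vismodegib minus DMSO) of the 27 members tested, and bars are 95% intervals from limma. The intervals of Retn, Cfd, Cidec, Lpl and Scd1 lie above 0 before adjustment, no interval lies below 0, and no gene passed after adjustment over all genes.

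Further genes of the same pathways were taken from 5 lists of fat cell, lipid storage, lipogenesis, thermogenesis and adipogenesis genes, 80 genes in all. Of the 47 that could be tested, 31 had differences above 0 and 16 below, where 58.4% of all genes tested were above 0. In either direction, 0 passed. In 4 of the 47 the groups did not overlap, all higher in Vismodegib, where 4.29% of all genes tested did so. These 4 were Aoc3, an amine oxidase on the fat cell surface (difference 0.49), Gpat3, a glycerol phosphate acyltransferase of fat (0.68), Acsl3, an acyl-CoA synthetase of the droplet surface (0.86), and Acss2, which makes acetyl-CoA from acetate (0.30). Aoc3 and Acss2 had DMSO means of 0.492 and 0.441 RPKM. Both passed the filter of 0.5 RPKM only through Vismodegib, so they were bound to lean higher. Adig, a small protein of fat cells, was at 0.132, 0.0709 and 0.275 RPKM without the drug, compared with 2.49, 2.25 and 0.0213 RPKM with it. As in Adipoq and Cidec, Vismodegib replicates 1 and 2 were above the other 4 libraries in Adig. The DMSO mean of Adig was 0.159 RPKM, so it too passed the filter only through Vismodegib. Mest and Angptl4, also on the fat cell list, had differences of 1.23 and -0.20. Of the 15 fat cell list genes too low to be tested, 5 had both Vismodegib replicates 1 and 2 above the other 4 libraries, against 9.66% of all genes: Slc2a4, Acvr1c, Rbp4, Sfrp5 and Cyp2e1. Among these, chosen after their values were seen, Rbp4, the retinol carrier, was at 0.0398, 0.150 and 0.0368 RPKM in the controls against 0.698, 0.854 and 0 RPKM in the treated tumours.

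In the lipid storage list, Acsl4 and Abhd5, the activator of Pnpla2, had differences of 0.73 and 0.28. For lipogenesis, Insig1, Nr1h3 and Fads2 had differences of 0.60, -0.29 and -0.47. The thermogenesis list had 3 tested genes. Dio2, which activates thyroid hormone, was at 17.6, 0.336 and 2.09 RPKM in the vehicle tumours versus 28.8, 8.70 and 21.8 RPKM under Vismodegib, and Cox7a1 and Cox8b, subunits of cytochrome oxidase that muscle shares with brown fat, had differences of 0.82 and 1.47. Cox8b was highest in Vismodegib replicate 1 at 6.67 RPKM and next in DMSO replicate 2 at 4.78 RPKM, unlike the fat cell genes. Among regulators of adipogenesis, Cebpd, an early factor that acts with Cebpb, was at 4.25, 5.34 and 6.95 RPKM without the drug, compared with 13.5, 11.3 and 6.21 RPKM with it. Cebpd was thus highest in Vismodegib replicates 1 and 2, with a difference of 0.81 (95% interval from 0.04 to 1.57, adjusted p = 1 by limma). Klf4, Nr2f2 and Nr3c1 had differences of 0.32, 0.39 and -0.25.

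Markers of other cell types were summed beside these results. The 6 fat cell markers Adipoq, Plin1, Cidec, Lep, Retn and Cfd summed to 1.56, 10.5 and 3.90 RPKM in the controls and to 75.4, 59.3 and 3.16 RPKM with the drug, mostly through Cfd. The 12 skeletal muscle markers summed to 28.4, 207 and 18.3 RPKM in the controls and to 194, 146.5 and 97.6 RPKM with the drug. All treated tumours, the third included, were thus above DMSO replicates 1 and 3, and DMSO replicate 2 was above them all. Of the muscle markers, 10 were tested, and all 10 had differences above 0, with a median of 1.32, against 0.21 for the 27 members. Over all genes tested, 58.4% were above 0. The groups did not overlap for 1 of the muscle markers, where 4.29% of all genes tested were higher in Vismodegib without overlap. This was Tnnt3, a fast muscle troponin, with a difference of 1.497 (unadjusted p = 0.0051, adjusted p = 1 by limma). The 10 endothelial markers ranged from 44.5 to 214 RPKM in DMSO, with DMSO replicate 1 highest as it was for Fabp4 among the controls, and from 64.4 to 147 RPKM in Vismodegib. Macrophage markers (10 genes) ranged from 1219 to 2137 RPKM and from 796 to 2715 RPKM, and fat progenitor markers (8 genes) from 121 to 284.5 RPKM and from 223 to 307.1 RPKM. Most of the progenitor sum was Ly6a, at 279.9 RPKM in DMSO replicate 2 and 295 RPKM in Vismodegib replicate 1. In 0 of the 8 progenitor markers were both Vismodegib replicates 1 and 2 above the other 4 libraries, against 9.66% of all genes. The 8 tumour epithelial markers summed to 1628 to 2768 RPKM in DMSO and to 2522 to 2668 RPKM in Vismodegib, largely through Krt8 and Krt18. Their differences had a median of 0.74, with 6 above 0 and 2 below. The groups did not overlap for 3 of the 8, Krt7, Cldn4 and Elf3, all higher in Vismodegib, where 4.29% of all genes tested did so. Epcam and Krt7 had Vismodegib replicates 1 and 2 above the other 4 libraries, as did 12.5% of all genes tested. The 7 mammary secretory markers found ranged from 0.0894 to 0.794 RPKM and from 0.380 to 3.86 RPKM, with Vismodegib replicate 1 highest, and the 6 B cell markers found from 0.855 to 5.58 RPKM and from 0.435 to 2.27 RPKM. No marker of these lists was listed at 0 in all libraries. The part of these cell types in the results was not tested.

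**Figure D5:**
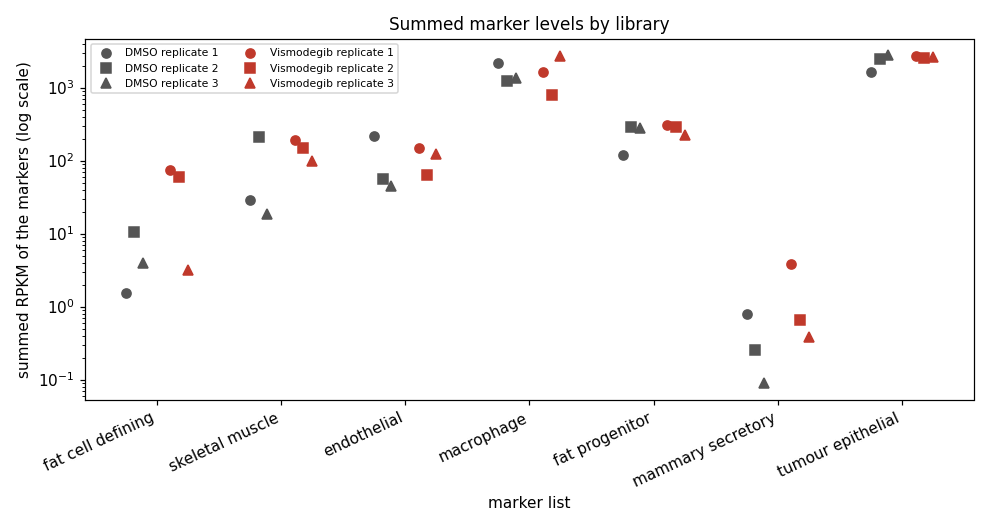
Summed RPKM of marker lists on a log scale, with symbols for replicates and colours for groups. The fat cell sum sets Vismodegib replicates 1 and 2, at 75.4 and 59.3 RPKM, above the other 4 libraries by a wide margin. The skeletal muscle sum has all treated tumours above DMSO replicates 1 and 3 and below DMSO replicate 2, and the fat progenitor sum, mostly Ly6a, does not separate Vismodegib replicate 2 at 284.6 RPKM from DMSO replicate 2 at 284.5 RPKM.

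The libraries held 34800000 to 58000000 reads by the steps of their low values, and the composition of their reads also differed. Across 11613 genes, GC content and the difference between a library and the mean of all 6 had correlations of -0.22 and -0.35 in Vismodegib replicates 1 and 2, of 0.29 in Vismodegib replicate 3, and of -0.15 to 0.21 in DMSO. The 12 tested members that were highest in Vismodegib replicates 1 and 2 had a median GC content of 48.0%, against 50.3% for all genes. With each library's trends on GC content and length removed, the differences were 2.502 for Cfd, 1.94 for Retn, 1.85 for Scd1, 1.45 for Cidec, 1.24 for Lpl and 1.18 for Adipoq, about as large as without the removal. The GC trends had opposite signs within the Vismodegib group and partly cancelled in its mean, so differences between groups could change little. The part of GC content in the pattern of Vismodegib replicates 1 and 2 was not tested. One alternative changed calls among the members. With library weights, 8 members passed, all higher in Vismodegib, where 3.55% of all genes were called. Limma set the weights at 7.28 for DMSO replicate 3 and at 0.32 for each of the other DMSO libraries. Vismodegib replicates 1, 2 and 3 had weights of 1.26, 2.34 and 0.461, so the third treated tumour counted least in its group. The 8 members were Adipoq, Retn, Cfd, Cidec, Lpl, Fabp4, Scd1 and Car3, with adjusted p from 0.0156 to 0.0387 by limma. The weights let 1 control library stand for most of the DMSO group. Adipoq, Retn, Cidec, Lpl and Car3 had DMSO means from 0.104 to 0.294 RPKM. These genes reached the mean of 0.5 RPKM only through Vismodegib, so they were bound to lean higher.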

How the data were processed

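RNA of 3 DMSO and 3 Vismodegib tumours was read as pairs of 150 bases, per the labels, and samples were grouped by their titles. The authors deposited RPKM values per gene symbol; bcl2fastq 2.17, cutadapt, STAR, HISAT2, SAMtools and Partek with mm10 are named in the submitters' processing notes, while tool roles, gene models and strandedness are not stated in those notes. Because RPKM is scaled to a library's total, a rise in some genes lowers the values of others. Depth was recovered from the steps of low values, taking a step as 1 read of genes with 1 transcript in GENCODE M21; with it, 83.6% to 85.4% of low values, up to 20 reads, were whole within 0.02 reads. Whether reads or pairs were counted is unknown, a total too high by a whole factor would not be seen, and limits of 3 reads cover counting error only.

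Genes whose mean reached 0.5 RPKM were tested on log2(RPKM + 0.5), which understates changes of low genes, with limma 3.58.1 in R 4.3.3 (lmFit, eBayes with trend), group as the only term, two-sided, with Benjamini-Hochberg adjustment over all genes tested. The fit was tested on simulated data. Members and further genes that passed the filter only through 1 group were bound to differ, so counts over those tested are descriptions. Every member was named, and up to 4 genes of each further list by smallest unadjusted p. The members and lists were chosen with earlier results of these data known. Alternatives changed the pseudocount, filter, scaling, variance model, library weights and replicate block, and left out each library; removal of GC and length trends was added after seeing the data.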

Additional observations from a re-analysis of the deposited data

How the results depend on the processing

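With 0 genes and 0 members past the threshold in limma (266 genes and 5 members at an unadjusted p under 0.05), the count of genes became 420 with library weights, 1 with the replicate number as a block, and 0 to 19 when single libraries were left out, the 19 without DMSO replicate 1. The count of members past the threshold became 8 with library weights and was 0 without any single library. The count of members above 0, 21 of 27 tested, was 32 of 40 with no filter and 13 of 18 with a filter at 2 RPKM, because the number tested changed, and ran from 17 to 25 without single libraries. The members' median difference, 0.21, was 0.11 with the filter at 2 RPKM, 0.14 with quantile scaling and 0.15 with median-ratio scaling, and ran from 0.15 to 0.30 without single libraries. The replicate block changed no member's call. The labels state no pairing of libraries by number. Across genes, the deviations of same-numbered libraries from their group means correlated at 0.003, 0.04 and -0.31. DMSO replicate 2 correlated best with its own number, and DMSO replicates 1 and 3 with other numbers (0.167 and 0.303). Deviations within a group of 3 libraries sum to 0, so these correlations cannot settle whether the libraries were paired.

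Differences close to 0 turned sign. Pnpla2 was -5.2e-06 with a pseudocount of 1, -0.0629 with median-ratio scaling, -0.0451 with quantile scaling and -0.27 with library weights. Lipe was -0.0197 with median-ratio scaling, -0.0235 with quantile scaling and -0.41 with library weights. With library weights Acly was -0.00461 and Cebpa -0.26, and Scd2 was 0.0358 with GC and length trends removed. Over the fits without single libraries, Plin2 ran from -0.0210 to 0.16, Fabp5 from -1.005 to 0.18, Pnpla2 from -0.39 to 0.34, Lipe from -0.23 to 0.33, Acly from -0.0571 to 0.22, Acaca from -0.37 to 0.18, Scd2 from -0.19 to 0.16, Srebf1 from -0.25 to 0.0857, Cebpa from -0.17 to 0.62, Cebpb from -0.63 to 0.47, Angptl4 from -0.63 to 0.15 and Nr3c1 from -0.46 to 0.0301. The cause was not tested. The other members tested, and the other genes of the further lists named by smallest p, kept their direction under the alternatives run; members under the filter, and genes named after their values were seen, were not followed one by one. Depth limits Plin5, Cidea, Ucp1, Adrb3, Pparg and Lep, where few reads stand behind a value and a difference was not detectable. The place of Lep in the pattern of Vismodegib replicates 1 and 2 therefore describes its listed values only. Plin1 was limited as well, with about 8.5 reads in Vismodegib replicate 1 against 4.9 in DMSO replicate 3.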

Other observations

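Further genes of lipid metabolism followed other libraries than the fat cell genes did; these were chosen after their values were seen. G0s2, the inhibitor of Pnpla2, had 0.153, 7.05 and 12.9 RPKM in the DMSO libraries, in replicate order, and 5.98, 6.58 and 0.594 RPKM in the Vismodegib libraries. Hilpda, a droplet protein that also inhibits Pnpla2 and is induced by low oxygen, was at 6.41, 16.2 and 24.97 RPKM in the vehicle tumours versus 14.8, 17.6 and 4.53 RPKM under Vismodegib. In both genes DMSO replicate 1 and Vismodegib replicate 3 were the lowest libraries. Gpihbp1, the endothelial anchor of lipoprotein lipase, was at 40.7, 8.32 and 5.41 RPKM without the drug, compared with 21.6, 12.4 and 26.5 RPKM with it, far above the level of Lpl itself in every library.

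Milk genes were low throughout and highest in Vismodegib replicate 1. Csn3, the gene of kappa casein, was at 0.0579, 0.0276 and 0.0834 RPKM in the controls against 1.30, 0.180 and 0.0457 RPKM in the treated tumours. Btn1a1, which encodes butyrophilin, a protein of the milk fat globule membrane, was at 0.0778, 0.00697 and 0.00600 RPKM in the vehicle tumours versus 0.531, 0.0739 and 0.0209 RPKM under Vismodegib. Cyp2e1, a cytochrome of liver and fat, was listed at 0 in all 3 DMSO libraries and was at 0.468, 0.325 and 0.0639 RPKM in Vismodegib.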
